A study of Homo sapiens with 31 samples.

Results

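The genes described here encode the enzymes and carriers that burn fatty acids in mitochondria and peroxisomes, the 3 peroxisome proliferator-activated receptors (PPARs) with their coactivator PPARGC1A, and 3 PPAR target genes. The list held 36 genes by name. A gene was taken as measured when a probe set of the array named it and no other gene, and its brightest probe set by the mean over all 31 arrays was used. On this rule 35 of the 36 genes were measured, out of 22395 genes in all, and ACSL3 had no such probe set and is not analysed here. Of the 35 measured genes 33 lay above the median level of all genes. ACADL lay below the median of every array in all 8 groups, so it was not shown to be above background.

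RNA came from Caco-2 cells, a line from 1 human colorectal adenocarcinoma that forms an enterocyte-like layer when confluent, grown for 21 days in a perfused gut-on-chip (100 µL/h) or without flow on Transwell inserts. In the chip the 6 h exposures were 80 µg/mL ZnO nanomaterial, ZnO-control medium, 100 µg/mL TiO2 nanomaterial and TiO2-control medium. On Transwell inserts they were 10 µg/mL ZnO, ZnO-control medium, 50 µg/mL TiO2 and TiO2-control medium, and the control media were dispersion solutions without metal. Each group had 4 arrays except Transwell TiO2, which had 3. All cells were grown in the same serum-supplemented medium, per the labels, and the nominal concentrations of the 2 systems were chosen by modelling to give equal deposited doses. The labels do not say whether replicates came from separate cultures, so p-values measure the spread between these samples, which may be technical. Each chip array was also perfused, so flow, device and membrane cannot be told apart as parts of the culture system.

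Long-chain fatty acids enter the mitochondrial matrix as carnitine esters and are then shortened there by repeated rounds of dehydrogenation, hydration, a further dehydrogenation and thiolytic cleavage. Very long and branched chains are first shortened in peroxisomes, which hand on their products through carnitine esters as well. PPARs are nuclear receptors that bind fatty acids and switch on many genes of these pathways, and enterocytes use them to handle dietary fat.

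PPARs bind DNA with a partner receptor at direct repeats of the hexamer AGGTCA spaced by 1 base. The 250 bases before the start site are shown for both genes with a called rise of at least 2-fold between the culture systems (PDK4 and CPT1A), for the gene with the largest called fall (CROT) and for PPARG, which was chosen after its values were seen because it held the hexamer. The sequences are from RefSeq on GRCh38.p14, written 5′ to 3′, and capitals mark AGGTCA on the printed strand.
PDK4, chr7:95596517-95596766, minus strand: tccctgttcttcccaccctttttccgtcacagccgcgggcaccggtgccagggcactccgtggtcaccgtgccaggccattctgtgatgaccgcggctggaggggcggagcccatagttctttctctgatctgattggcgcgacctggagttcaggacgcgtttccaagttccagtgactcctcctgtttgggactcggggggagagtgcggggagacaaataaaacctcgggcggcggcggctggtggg
CPT1A, chr11:68844278-68844527, minus strand: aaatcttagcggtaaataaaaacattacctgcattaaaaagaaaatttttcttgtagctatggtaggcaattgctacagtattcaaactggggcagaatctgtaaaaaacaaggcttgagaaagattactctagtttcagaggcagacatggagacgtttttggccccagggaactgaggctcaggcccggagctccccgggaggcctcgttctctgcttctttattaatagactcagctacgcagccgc
CROT, chr7:87345414-87345663, plus strand: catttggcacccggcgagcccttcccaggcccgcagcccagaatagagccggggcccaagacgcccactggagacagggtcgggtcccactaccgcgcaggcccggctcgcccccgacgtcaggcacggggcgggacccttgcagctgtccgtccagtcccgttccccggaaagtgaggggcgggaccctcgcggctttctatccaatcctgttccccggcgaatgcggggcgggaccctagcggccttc
PPARG, chr3:12287118-12287367, plus strand: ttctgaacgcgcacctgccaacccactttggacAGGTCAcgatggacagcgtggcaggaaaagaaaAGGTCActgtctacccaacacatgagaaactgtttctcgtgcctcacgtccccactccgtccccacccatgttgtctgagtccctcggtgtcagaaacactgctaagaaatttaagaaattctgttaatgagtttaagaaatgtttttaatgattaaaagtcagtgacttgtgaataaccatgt
The RefSeq promoter table held 29 of the 35 genes. AGGTCA on either strand was found in 2 of these 29 promoters (6.9%), with 2 matches in PPARG and 1 in ACSL5, against 4242 of all 35116 promoters (12.1%). The spaced repeat AGGTCANAGGTCA, searched on both strands, was found in 0 of the 29 and in 6 of all promoters (0.0171%). These matches describe letters in this window only.

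The arrays separated by culture system. On the first principal component of the genes above the median level, which held 58.3% of the variance, chip arrays lay between 19.06 and 49.92 and Transwell arrays between -38.85 and -29.37. Chip replicates spread more: the median SD of the 35 genes was 0.276, 0.212, 0.201 and 0.185 in the chip ZnO, ZnO-control, TiO2 and TiO2-control groups, against 0.107, 0.107, 0.083 and 0.096 in the same groups on Transwell. The wider spread was not particular to these genes. Over all genes above the median level the median SD was 0.227, 0.204, 0.204 and 0.214 in the chip and 0.134, 0.127, 0.112 and 0.145 on Transwell, in the same order. Replicate 4 of chip TiO2 and replicate 4 of chip TiO2 control lay apart from the other arrays of their groups on later components, and results that use them are given without them too where they changed. Epithelial markers such as EPCAM, CDH1 and KRT8 were above the array medians in every group. Of the 12 measured epithelial and enterocyte markers 4 were higher and 6 lower in chip control arrays, and the per-array mean of the list was 8.45 to 9.13 in the chip and 9.15 to 9.44 on Transwell. FABP2, an intestinal fatty acid carrier, was lower by a log2 difference of -4.25 ± 0.17 and was below the array medians in every chip group, so this difference is at best a lower bound. Among markers of other cell types, PTPRC and CD3E (immune) and ADIPOQ, LEP and FABP4 (adipocyte) were below the array medians in every group, while the immune markers CD14, CD68 and LYZ and the adipocyte marker CIDEC were above them in every group. The stromal markers COL1A1, LUM, PDGFRB and VIM were likewise not below them in any group. The endothelial marker CDH5 was below them in Transwell ZnO alone, and 0 of 3 measured endothelial markers were called between control arrays. Of 6 immune markers 2 were higher in the chip, CD68 by 0.64 ± 0.10 and LYZ by 0.83 ± 0.18, and 1 was lower, CD3E by -0.35 ± 0.13, and 0 of 5 adipocyte markers were called. Of 6 stromal markers VIM was higher by 1.26 ± 0.12, and LUM and PDGFRB were lower by -0.98 ± 0.18 and -0.88 ± 0.14. The per-array means of the immune list were 4.72 to 5.24 in the chip and 4.48 to 4.93 on Transwell. The part of these markers in the results that follow was not tested, and fewer cells of a type cannot be told apart from less RNA per cell.

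Unexposed chip cells were set against unexposed Transwell cells, as the mean over both control media (8 against 8 arrays), to see what the culture system alone does to these genes. Genes are said to be called when the Benjamini-Hochberg adjusted p of limma, over all 22395 genes, was below 0.05. Of the 35 genes 24 (68.6%) were called, 6 higher and 18 lower in the chip, against 33.5% of all genes, of which 14.6% were higher and 18.9% lower. In a separate fit, with p-values adjusted over the 11197 genes above the median level alone, 78.8% of the 33 in the list and 61.1% of all such genes were called, with 57.6% of the 33 lower against 34.8% of all such genes, and 21.2% higher against 26.3%. The median log2 difference was -0.18 over the list and -0.00 over all genes. The higher genes were CPT1A, which controls entry into mitochondria, PDK4, an inhibitor of pyruvate dehydrogenase, and ACADVL, ACAA2, ETFA and ACSL5. All 4 peroxisomal genes, the carnitine genes SLC25A20, SLC22A5 and CRAT, and PPARA and PPARG were lower. Without both replicates 4 named above 22 were called, 5 higher and 17 lower.

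**Figure D1:**
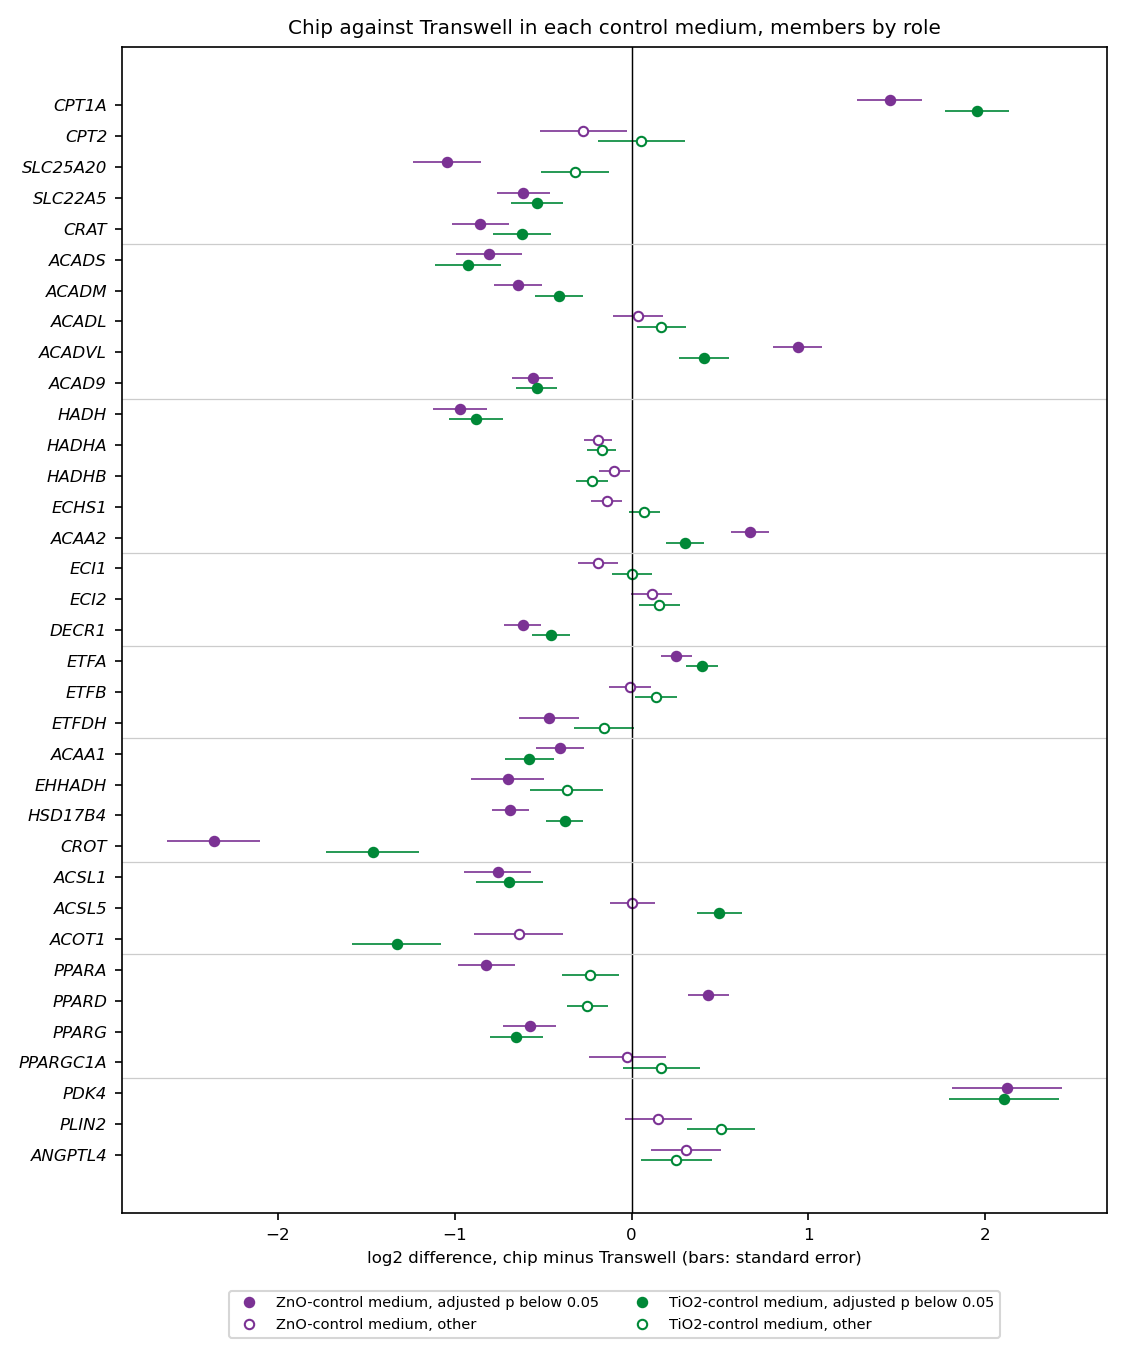
Log2 difference, chip minus Transwell, of each of the 35 genes in ZnO-control medium (purple) and TiO2-control medium (green), 4 against 4 arrays each; bars are the standard error from limma, filled points have an adjusted p below 0.05, and grey lines separate roles. PDK4 and CPT1A lie farthest to the right and CROT farthest to the left in both media.

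In the carnitine shuttle 1 of 5 genes was higher and 3 were lower. CPT1A, the outer-membrane enzyme that makes carnitine esters and limits the rate of import, read 8.73, 8.87, 9.05 and 9.41 in the chip and 7.77, 7.68, 7.39 and 7.39 on Transwell in ZnO-control medium. In TiO2-control medium it read 8.46, 9.02, 9.03 and 9.39 in the chip and 6.92, 7.17, 6.88 and 7.12 on Transwell. Every chip control array was thus above every Transwell control array, and the same held over all arrays, with 8.46 to 9.55 in the 16 chip arrays and 6.88 to 7.77 in the 15 Transwell arrays. The difference was 1.71 ± 0.13 (SE; 3.26-fold higher, limma adjusted p = 1.58e-11).

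The carriers SLC25A20 and SLC22A5 and the enzyme CRAT, which work beside CPT1A, were lower. SLC25A20, which exchanges carnitine esters for carnitine across the inner membrane, was at 6.61 to 7.35 (median 7.15) in chip control arrays and 7.4 to 8.19 (median 7.83) on Transwell, a difference of -0.68 ± 0.14 (limma adjusted p = 0.000195). It differed by -1.04 ± 0.19 in ZnO-control medium and by -0.32 ± 0.19, which was not called, in TiO2-control medium. SLC22A5, the carnitine importer of the plasma membrane, lay at 5.4 to 5.84 in the chip and 5.96 to 6.37 on Transwell (-0.57 ± 0.11). CRAT, which moves acetyl groups between carnitine and coenzyme A, lay at 5.84 to 6.98 in the chip and 6.99 to 7.55 on Transwell (-0.74 ± 0.11). Control arrays of the 2 systems did not overlap for any of these 3 genes, though for CRAT they came within 0.01 of each other. CPT2, which turns the carnitine ester back into the coenzyme A ester on the inner side, was not called (-0.11, limma adjusted p = 0.703), and its control arrays overlapped.

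The acyl-CoA dehydrogenases, which open each round and differ in chain length preference, did not move one way. ACADVL, for very long chains, was higher in the chip by 0.67 ± 0.10 (limma adjusted p = 2.61e-06), at 9.28 to 10.06 in the chip against 8.66 to 9.3 on Transwell. ACADS, for short chains, was lower by -0.86 ± 0.13 (1.82-fold lower, limma adjusted p = 4.86e-06). ACADS read 4.73, 5.08, 5.57 and 5.36 in the chip and 5.63, 6.00, 6.33 and 6.01 on Transwell in ZnO-control medium, and 4.78, 5.36, 5.64 and 5.28 in the chip and 5.97, 6.29, 6.09 and 6.41 on Transwell in TiO2-control medium. The highest chip array was 0.01 above the lowest Transwell array, so the 2 systems just overlapped. ACADM, for medium chains, was lower by -0.53 ± 0.10, and ACAD9, a family member that also helps to assemble respiratory complex I, by -0.55 ± 0.08. For ACADM and ACAD9 all 16 chip arrays were below all 15 Transwell arrays. ACADL, for long chains, was near the floor throughout, at 2.33 to 3.06 in chip and 2.18 to 2.68 in Transwell control arrays.

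Of the 5 genes for the later steps of the mitochondrial round 1 was higher and 2 were lower. HADH, the 3-hydroxyacyl-CoA dehydrogenase for short and medium chains, read 6.62, 6.73, 6.81 and 6.56 in the chip and 7.62, 7.73, 7.72 and 7.53 on Transwell in ZnO-control medium. In TiO2-control medium HADH read 6.69, 7.02, 7.28 and 6.49 in the chip and 7.72, 7.80, 7.81 and 7.66 on Transwell. All 16 chip arrays (6.08 to 7.28) were below all 15 Transwell arrays (7.52 to 7.81), and the control difference was -0.93 ± 0.11 (1.9-fold lower, limma adjusted p = 5.63e-08). The trifunctional protein, which carries out the same steps on long chains, differed far less: HADHA was lower by -0.18 ± 0.06 (limma adjusted p = 0.0159) and HADHB differed by -0.16 ± 0.06 (limma adjusted p = 0.0514). The HADHA call was lost when each array was centred on its median (limma adjusted p = 0.0787) or when only the control groups were fitted (0.0551). HADHB was called when any 1 of 4 arrays was left out (limma adjusted p = 0.0283 to 0.0414). These were chip TiO2-control replicate 2, chip ZnO-control replicates 1 and 3, and Transwell ZnO-control replicate 4. HADHB was also called with an intensity trend (limma adjusted p = 0.0257), array weights (0.0348), only brighter genes (0.0204) or quantile normalisation (0.0458). It was not called under the other settings that kept all arrays. ECHS1, the short-chain hydratase, was not called (-0.03, limma adjusted p = 0.74). ACAA2, the matrix thiolase that cleaves off acetyl-CoA, was higher by 0.49 ± 0.08, and its control arrays did not overlap, at 9.12 to 9.42 in the chip and 8.54 to 9.03 on Transwell.

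Of the 3 enzymes that prepare unsaturated chains DECR1, the dienoyl-CoA reductase, was lower by -0.54 ± 0.08 (limma adjusted p = 1.25e-06), with all 16 chip arrays (4.71 to 5.36) below all 15 Transwell arrays (5.39 to 5.75). The isomerases ECI1 (-0.09) and ECI2 (0.13) were not called. Electrons from the dehydrogenases pass to the flavoprotein of ETFA and ETFB and on to ETFDH, which feeds the respiratory chain. ETFA was higher by 0.33 ± 0.06 (limma adjusted p = 0.000108), at 9.49 to 9.59 in chip and 9.09 to 9.37 in Transwell control arrays, while its partner subunit ETFB was not called (0.06). ETFDH was lower by -0.31 ± 0.12 (limma adjusted p = 0.0429). That call was lost when any 1 of 11 of the 16 control arrays was left out (limma adjusted p = 0.0559 to 0.102), and it was kept only without replicates 2 or 3 of either chip control group or replicate 4 of Transwell ZnO control. It was also lost when arrays were centred on their medians (limma adjusted p = 0.0854) or quantile-normalised once more (0.134).

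All 4 peroxisomal genes were lower in the chip. CROT, which makes carnitine esters of the medium-chain products that leave the peroxisome, read 5.54, 6.16, 6.51 and 5.55 in the chip and 8.38, 8.33, 8.40 and 8.10 on Transwell in ZnO-control medium. In TiO2-control medium CROT read 5.47, 5.96, 6.37 and 6.09 in the chip and 7.31, 7.71, 7.19 and 7.53 on Transwell. Control arrays of the 2 systems were far apart, and the difference was -1.91 ± 0.19 (3.77-fold lower, limma adjusted p = 2.56e-09). HSD17B4, the D-bifunctional enzyme of the peroxisomal round, was lower by -0.53 ± 0.07, with all 16 chip arrays (8.3 to 9.01) below all 15 Transwell arrays (9.21 to 9.55). EHHADH, the L-bifunctional enzyme, was lower by -0.53 ± 0.15 (limma adjusted p = 0.00436) and ACAA1, the peroxisomal thiolase, by -0.49 ± 0.10 (limma adjusted p = 0.000144), both with overlapping arrays.

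Among the enzymes that attach or remove coenzyme A, ACSL1, a long-chain acyl-CoA synthetase, was lower by -0.72 ± 0.13 (limma adjusted p = 7.21e-05), with overlapping arrays. ACSL5, the synthetase of enterocytes that sits on mitochondria and the endoplasmic reticulum, was called higher by 0.25 ± 0.09 (limma adjusted p = 0.0314). The ACSL5 difference was 0.00 ± 0.13 in ZnO-control medium and 0.50 ± 0.13 in TiO2-control medium. Its call was lost (limma adjusted p = 0.0534 to 0.0761) without replicate 2 or 3 of Transwell ZnO control, replicate 3 of Transwell TiO2 control, or replicate 4 of either chip control group. ACOT1, a cytosolic thioesterase that frees the fatty acid again, read 5.0, 4.91, 5.35 and 5.36 in the chip and 5.77, 5.80, 5.83 and 5.77 on Transwell in ZnO-control medium. In TiO2-control medium ACOT1 read 5.46, 5.30, 5.06 and 5.09 in the chip and 6.43, 6.84, 6.24 and 6.72 on Transwell. No chip control array reached a Transwell one, and the difference was -0.98 ± 0.18 (1.98-fold lower, limma adjusted p = 5.19e-05). It was -0.64 ± 0.25 in ZnO-control medium, which was not called (limma adjusted p = 0.0599). In TiO2-control medium it was -1.33 ± 0.25 (limma adjusted p = 0.00021). ACOT1 has a near-identical neighbour, ACOT2, so probes for it can bind both transcripts and its value is uncertain.

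**Figure D2:**
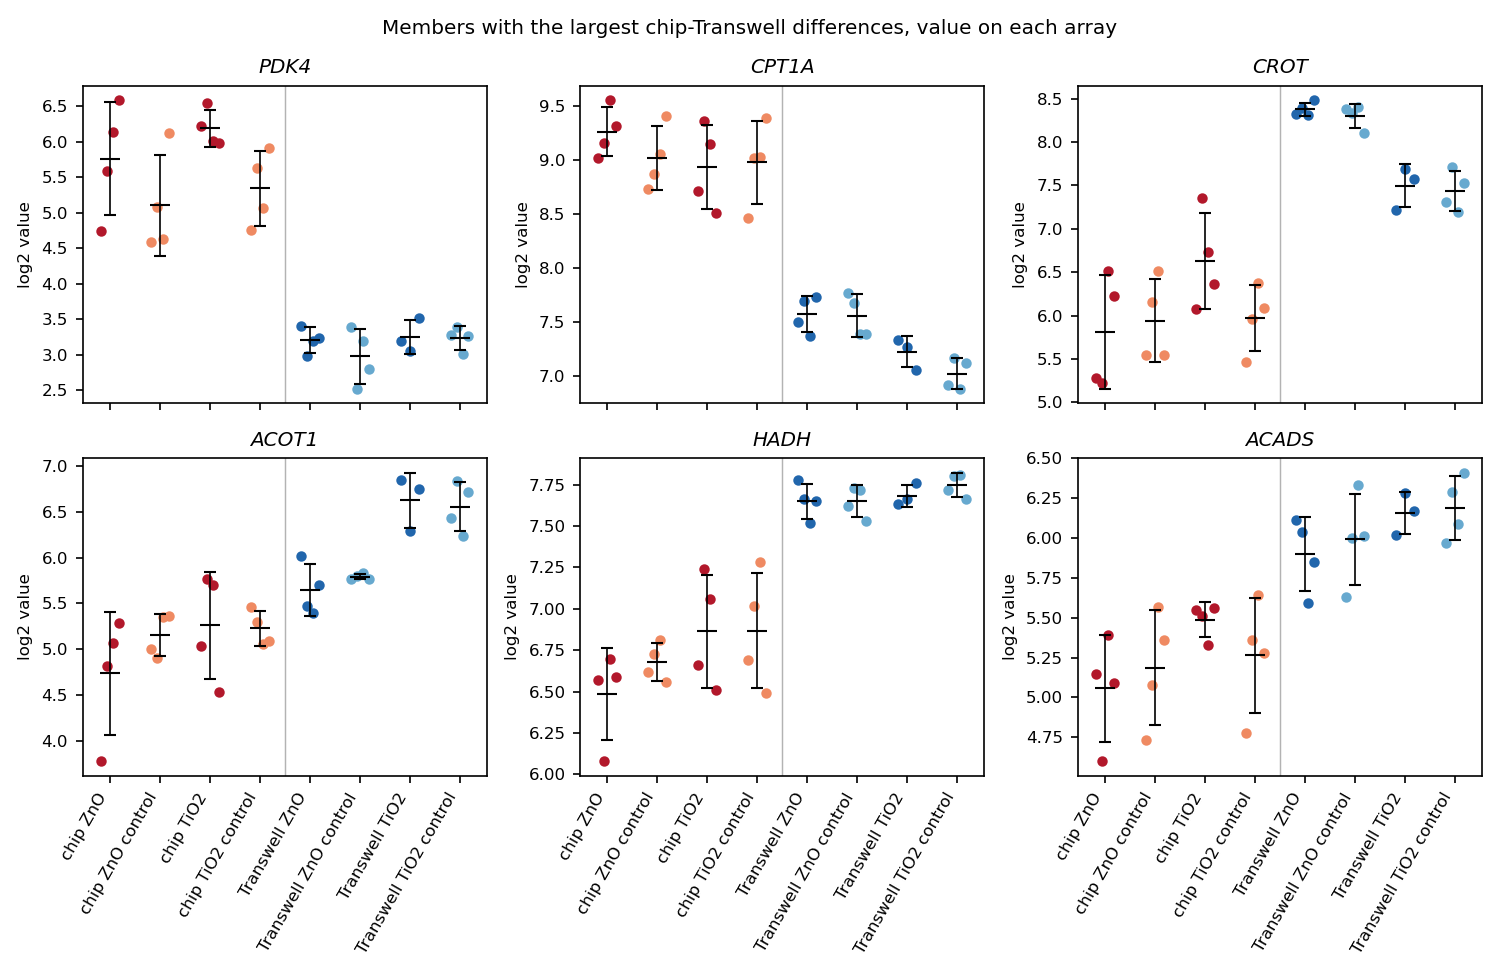
Log2 value of each array (points) for the 6 genes with a called control difference of at least 0.8, in the 8 groups with chip groups left of Transwell groups; bars show the mean ± SD (n = 4, or 3 for Transwell TiO2). PDK4 and CPT1A are higher in every chip group, and CROT, ACOT1, HADH and ACADS have lower means in every chip group.

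PDK4, the kinase that shuts off pyruvate dehydrogenase when fat is burned and a classical PPAR target, had the largest difference of the list. In ZnO-control medium PDK4 read 4.59, 5.08, 4.63 and 6.12 in the chip and 3.39, 2.52, 3.20 and 2.80 on Transwell. In TiO2-control medium it read 4.76, 5.63, 5.07 and 5.91 in the chip and 3.28, 3.39, 3.01 and 3.26 on Transwell. The lowest of all 16 chip arrays (4.59) was above the highest of all 15 Transwell arrays (3.52), and the control difference was 2.11 ± 0.22 (limma adjusted p = 8.08e-09). Group means on Transwell lay below the array medians, so a signal over background was not shown for PDK4 in that system, and its difference is at best a lower bound. The other PPAR targets of the list were not called: PLIN2, the coat protein of lipid droplets, differed by 0.33 ± 0.13 (limma adjusted p = 0.061) and ANGPTL4, a secreted inhibitor of lipoprotein lipase, by 0.28 ± 0.14 (limma adjusted p = 0.136). PLIN2 was called under 5 of the alternative settings, with limma adjusted p between 0.00802 and 0.0341.

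Of the receptors PPARA and PPARG were lower in the chip. PPARA, the main driver of fatty acid oxidation genes in liver, read 6.60, 5.79, 6.45 and 6.47 in the chip and 7.07, 7.30, 7.19 and 7.04 on Transwell in ZnO-control medium. In TiO2-control medium PPARA read 6.88, 7.01, 7.01 and 6.49 in the chip and 7.21, 6.96, 6.95 and 7.20 on Transwell. The systems were separate in the first medium and overlapped in the second, with differences of -0.82 ± 0.16 (limma adjusted p = 0.000194) and -0.23 ± 0.16 (limma adjusted p = 0.35). Over both media PPARA was lower by -0.53 ± 0.11 (limma adjusted p = 0.000417).

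PPARG, the receptor best known from adipocytes and also active in colonic epithelium, read 7.27, 7.09, 7.29 and 6.84 in the chip and 7.45, 7.95, 7.74 and 7.65 on Transwell in ZnO-control medium. In TiO2-control medium PPARG read 7.20, 6.64, 7.11 and 6.93 in the chip and 7.66, 7.51, 7.55 and 7.75 on Transwell. Chip arrays were all below Transwell arrays, over exposed arrays too, although the highest chip array (7.33) and the lowest Transwell array (7.34) were only 0.01 apart. The control difference was -0.61 ± 0.11 (limma adjusted p = 2.81e-05). PPARGC1A, the coactivator of mitochondrial gene programmes, had group means between 4.06 and 4.40, and its control arrays spanned 3.64 to 4.64 in the chip and 3.48 to 4.47 on Transwell (0.07, limma adjusted p = 0.786). It was dim and not among the 33 genes above the median level of all genes, which limits what the missing call shows.

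**Figure D3:**
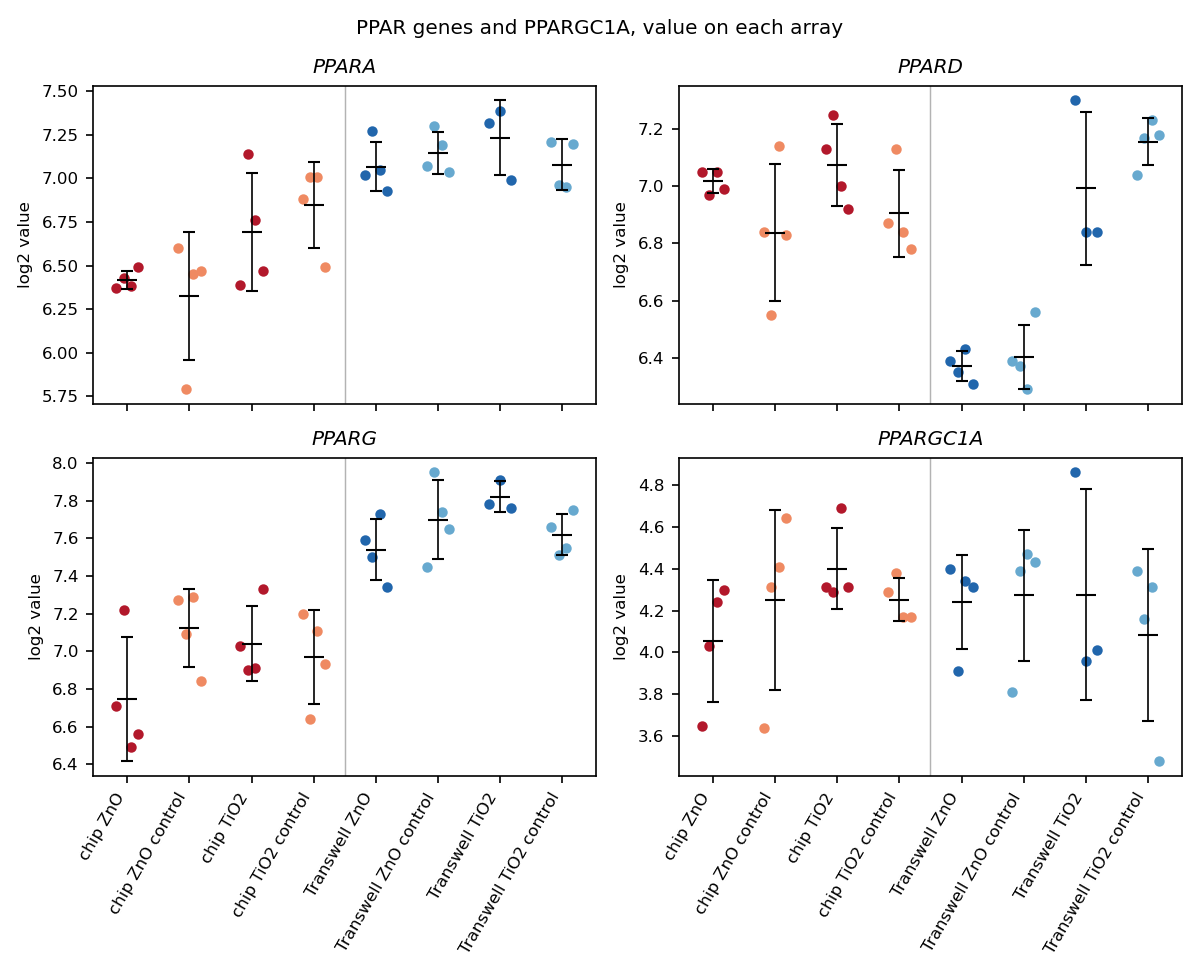
Log2 value of each array (points) for PPARA, PPARD, PPARG and PPARGC1A in the 8 groups, chip groups left of the grey line; bars show the mean ± SD (n = 4, or 3 for Transwell TiO2). PPARG is lower in every chip array, and PPARD is low in the ZnO and ZnO-control groups on Transwell alone.

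Within single media, 22 of the 35 genes (62.9%) were called in ZnO-control medium, 6 higher and 16 lower, against 27.2% of all genes (12.3% higher and 14.9% lower). In TiO2-control medium 19 (54.3%) were called, 6 higher and 13 lower, against 22.9% of all genes (9.42% higher and 13.5% lower). Part of this excess goes with brightness. In the separate fit of genes above the median level, 24 of the 33 in the list were called in ZnO-control medium, against 5877 of all 11197 such genes. In TiO2-control medium these were 21 of the 33 and 5132 of the 11197. In the fit over all genes, both media called 17 genes the same way, 5 higher and 12 lower, and 0 in opposite directions. The matching share of all genes was not counted, so whether such sharing is particular to the list was not tested. Without both replicates 4 of the TiO2 set 18 were called in TiO2-control medium, 5 higher and 13 lower, as ACAA2 was lost (limma adjusted p = 0.0541), and 16 were then shared, 4 higher and 12 lower. The 2 comparisons have separate arrays on both sides. Over all 4 media, exposures included, the chip mean was above the Transwell mean for 9 genes and below it for 18. The matching shares of all genes were not counted here either, so whether these counts are particular to the list was not tested. Over all arrays 2 genes were above and 6 below without overlap (ACADM, ACAD9, HADH, DECR1, HSD17B4 and PPARG), against 6.7% of all genes without overlap in either direction. Over control arrays alone 4 genes were above and 11 below, against 11.9% of all genes. As 33 of the 35 genes lay above the median level of all genes, shares among such brighter genes would be the closer match. Those shares were not counted, so whether the lack of overlap is particular to the list was not tested.

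PPARD, the PPAR found most widely across tissues, was the one gene of the list (2.86%) whose culture system difference was called as dependent on the medium, against 2.74% of all genes. At an unadjusted p below 0.05 by limma there were 8 (22.9%), against 15.9% of all genes. Besides PPARD these were CROT (-0.90), SLC25A20 (-0.72), PPARA (-0.59), ACSL5 (-0.49), HSD17B4 (-0.31), ACADVL (0.53) and ACAA2 (0.37), as ZnO-control minus TiO2-control medium. A dependence in these genes is thus not excluded. PPARD read 6.84, 6.55, 7.14 and 6.83 in the chip and 6.39, 6.37, 6.29 and 6.56 on Transwell in ZnO-control medium. In TiO2-control medium PPARD read 6.87, 7.13, 6.84 and 6.78 in the chip and 7.04, 7.17, 7.23 and 7.18 on Transwell. The chip was higher by 0.43 ± 0.12 in the first (limma adjusted p = 0.00465) and differed by -0.25 ± 0.12 in the second (limma adjusted p = 0.127), and the difference between these was 0.69 ± 0.16 (limma adjusted p = 0.0209). With only the control groups in the fit that call was lost (limma adjusted p = 0.055).

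The levels of PPARD differed between media on Transwell and not detectably in the chip. Between the control media on Transwell PPARD was lower in ZnO-control than in TiO2-control medium by -0.75 ± 0.12 (limma adjusted p = 0.000159), and in the chip it differed by -0.07 ± 0.12 (limma adjusted p = 0.912). Exposed arrays followed their own controls: the 8 Transwell arrays of ZnO and ZnO control lay at 6.29 to 6.56 and the 7 of TiO2 and TiO2 control at 6.84 to 7.3, without overlap. CROT showed the same split in the other direction, with 8.1 to 8.48 in the ZnO and ZnO-control arrays and 7.19 to 7.71 in the TiO2 and TiO2-control arrays. The CROT control difference was 0.87 ± 0.27 (limma adjusted p = 0.0452). For ACSL5 the Transwell control arrays read 9.91, 9.77, 9.69 and 9.91 in ZnO-control medium and 9.37, 9.42, 9.30 and 9.44 in TiO2-control medium, a difference of 0.44 ± 0.13 (limma adjusted p = 0.0348).

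These 3 genes were the ones called between control media on Transwell (8.57%), against 6.64% of all genes. The count depended on the setting, with 5 under 3 of the alternatives, 8 with only the 11197 brighter genes, 9 with only the groups compared in the fit and 10 with array weights. SLC25A20, at 0.60 ± 0.19 and an adjusted p of 0.0583 by limma as reported, was called under 7 of 9 alternative settings, ACAA2 under 5 and CPT1A under 4. The CROT call was lost without any 1 of the 8 Transwell control arrays (limma adjusted p = 0.055 to 0.132), and the ACSL5 call without any except replicate 3 of ZnO control (limma adjusted p = 0.0583 to 0.108), while the PPARD call held without each. Of the 35 genes 13 did not overlap between these media, 6 above and 7 below in ZnO-control medium, against 17.7% of all genes. The matching share of brighter genes was not counted. In the chip 0 of the 35 were called between control media by limma (0.058% of all genes), and 3 had an unadjusted p below 0.05. Over all genes 9.69% had such a p, against 8.57% of the 35. The 3 were EHHADH at -0.55 ± 0.21 (limma adjusted p = 0.361), CRAT at -0.52 ± 0.16 (0.24) and PPARA at -0.52 ± 0.16 (0.231). PPARA was called without chip TiO2-control replicate 4 (limma adjusted p = 0.0479) and without both replicates 4 (-0.64, limma adjusted p = 0.0393). Whether the 2 nanomaterial sets were grown or processed at different times is not given in the labels, and medium and set cannot be told apart.

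Exposure to the nanomaterials moved none of the 35 genes past the threshold in either system by limma. For ZnO in the chip 0 were called against 0.272% of all genes, and 5 (14.3%) had an unadjusted p below 0.05, against 9.42% of all genes: PDK4 at 0.66, and ACADM, PPARG, ACAA1 and ECHS1 at -0.38, -0.38, -0.36 and -0.30. ECHS1 had the smallest adjusted p (0.169, limma). For ZnO on Transwell 0 were called against 0 of all genes, and 0 of the 35 had an unadjusted p below 0.05, against 3.73% of all genes. The nominal ZnO concentrations were 80 µg/mL in the chip and 10 µg/mL on Transwell. Differences spanned -0.42 to 0.66 in the chip and -0.20 to 0.23 on Transwell. The 95% interval of the difference lay within 0.5 of 0 for 22 genes in the chip and for 30 on Transwell. The fit shares 1 spread per gene over both systems, so these intervals are equally wide in both. As chip replicates spread more, they may be too narrow for the chip and too wide for Transwell. With only the groups compared in the fit, 0 of the 35 were called in either system as well.

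For TiO2 in the chip 0 were called against 0 of all genes, and 3 (8.57%) had an unadjusted p below 0.05, against 8.92% of all genes. PDK4 read 6.22, 6.54, 6.01 and 5.98 in chip TiO2 arrays and 4.76, 5.63, 5.07 and 5.91 in their controls. All 4 exposed arrays were above all 4 controls, but the adjusted p was 0.43 by limma for a difference of 0.84 (95% interval 0.204 to 1.482). PDK4 was the one gene of the list without overlap in that comparison, against 3.34% of all genes. CROT read 6.07, 7.35, 6.73 and 6.36 in chip TiO2 arrays and 5.47, 5.96, 6.37 and 6.09 in their controls, with overlap and a difference of 0.66 (95% interval 0.113 to 1.2, limma adjusted p = 0.47). ETFA was the remaining gene and differed by -0.20. Without both replicates 4 the count of the 35 stayed at 0.

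For TiO2 on Transwell 0 were called against 0 of all genes, 0 of the 35 had an unadjusted p below 0.05 against 2.64% of all genes, and differences spanned -0.17 to 0.20, against -0.20 to 0.84 in the chip. The interval lay within 0.5 of 0 for 23 genes in the chip and for 25 on Transwell. The shared spread limits these counts too, and intervals on Transwell were wider because Transwell TiO2 had 3 arrays. Genes whose exposed and control arrays did not overlap numbered 2 for ZnO in the chip (ECHS1 and ETFA, against 3.59% of all genes), 1 for ZnO on Transwell (ECI2, 3.97%) and 4 for TiO2 on Transwell (ACADL, ETFA, PPARG and ACAD9, 5.53%). Tested directly, the response in the chip differed from that on Transwell for 0 of the 35 genes for ZnO (0.00447% of all genes) and for 0 for TiO2 (0 of all genes), with 2 (5.71%) and 1 (2.86%) genes at an unadjusted p below 0.05 by limma, against 6.01% and 5.43% of all genes.

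**Figure D4:**
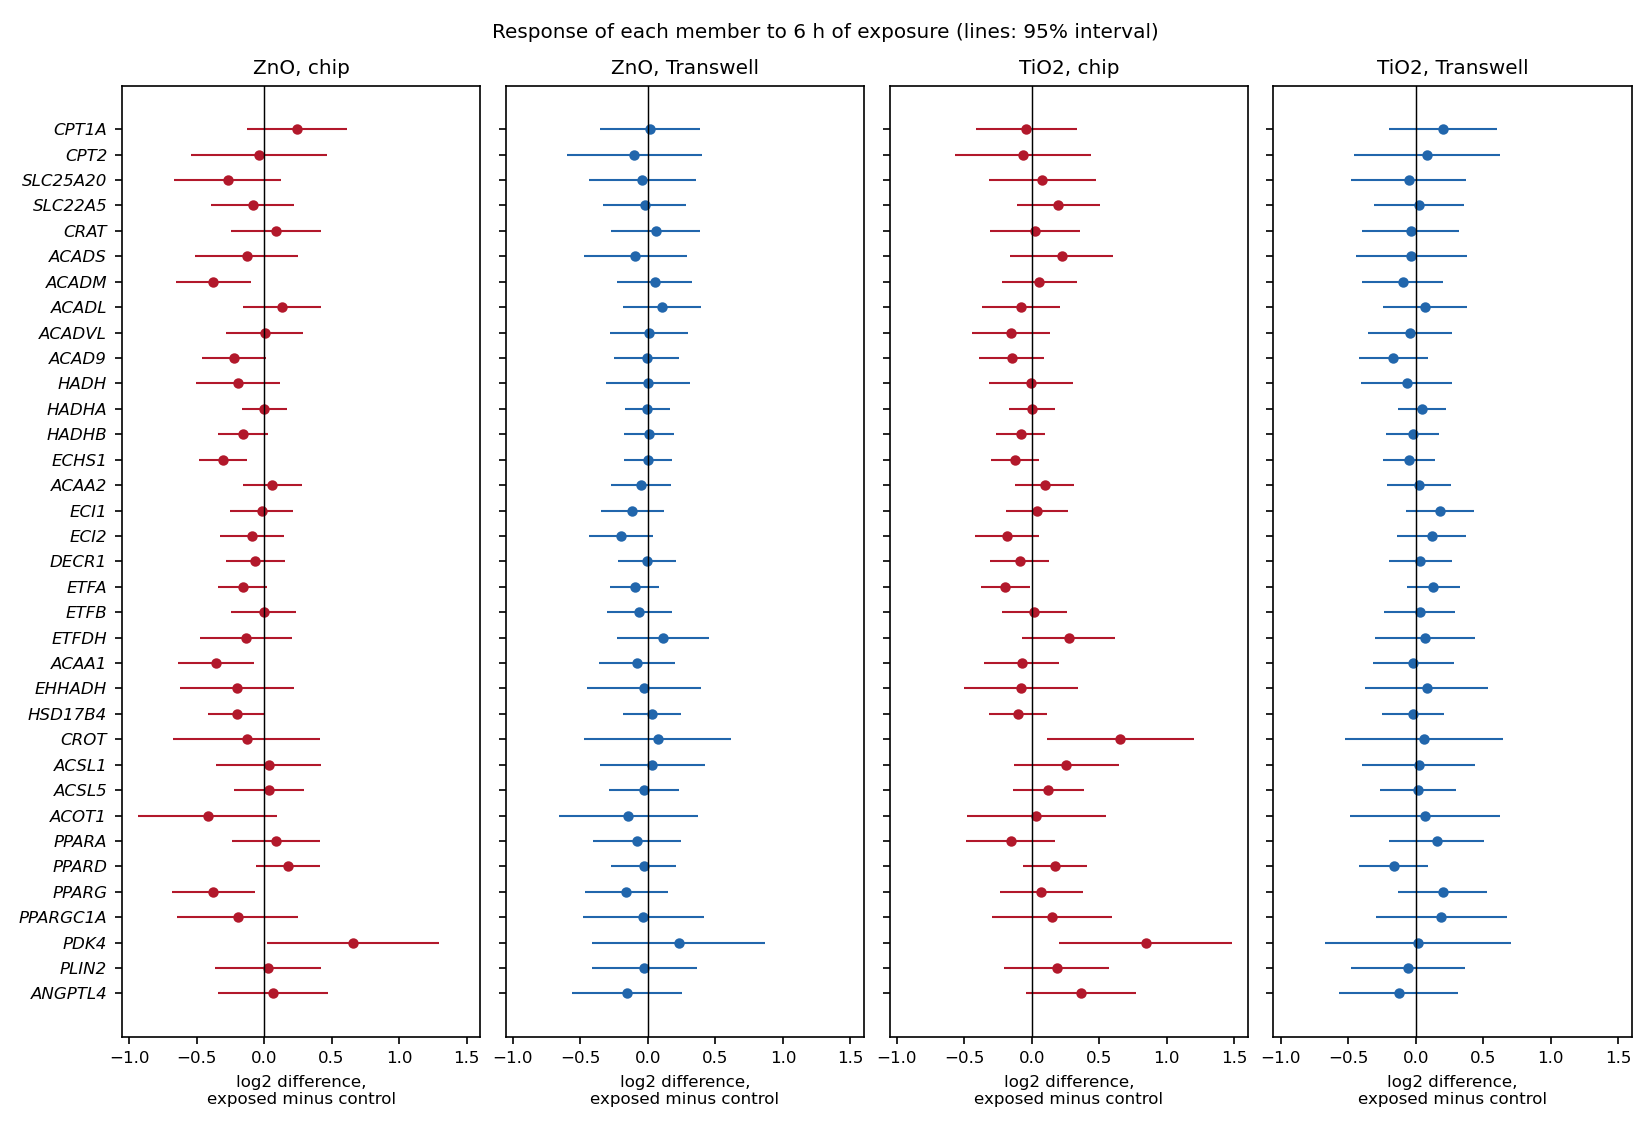
Log2 difference, exposed minus control, of each of the 35 genes for ZnO and TiO2 in the chip (red) and on Transwell (blue). Lines are 95% intervals from limma, with 1 spread per gene shared by both systems. Differences span -0.42 to 0.66 for ZnO and -0.20 to 0.84 for TiO2 in the chip, against -0.20 to 0.23 and -0.17 to 0.20 on Transwell, and PDK4 in chip TiO2 has the largest, 0.84.

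Neighbouring pathways were read from 8 further gene lists in the same comparison of control arrays, in which 14.6% of all genes were higher and 18.9% lower in the chip. Of the 27 measured further PPAR targets 6 were higher and 1 lower, with a median of -0.05. The 4 with the smallest p were all higher: TXNIP, a brake on glucose uptake, by 1.18 ± 0.09, FABP3, a fatty acid carrier, by 1.10 ± 0.10, MGLL, the monoglyceride lipase, by 1.06 ± 0.08, and PNPLA2, the triglyceride lipase, by 0.85 ± 0.08. Of the 14 genes of droplets and lipolysis, which share some members with that list, 3 were higher and 5 lower, and FITM2, which helps droplets to form, and DGAT1, which makes triglyceride, were lower by -1.09 ± 0.10 and -0.80 ± 0.10.

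Peroxisomal oxidation beyond the 4 genes above had 1 of 12 higher and 4 lower. ACOX2, the oxidase for branched chains and bile acid precursors, was lower by -1.43 ± 0.20, PEX11A, which divides peroxisomes, by -1.24 ± 0.16 and CAT, the catalase, by -0.44 ± 0.10, while PHYH, which starts the breakdown of phytanic acid, was higher by 0.79 ± 0.09. Of 16 measured nuclear receptor partners and coregulators 0 were higher and 5 lower. Among these NRIP1, a corepressor, was lower by -0.97 ± 0.10, MED1, a Mediator subunit that binds PPARs, by -0.85 ± 0.12, ESRRA, a receptor that drives mitochondrial genes, by -0.63 ± 0.12 and NCOA1, a coactivator, by -0.62 ± 0.09.

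Relatives of PDK4 were lower or not called. Of 8 genes of the pyruvate dehydrogenase kinases, phosphatases and complex 1 was higher and 2 lower. The kinases PDK3 and PDK1 were lower by -1.79 ± 0.16 (limma adjusted p = 3.98e-10) and -0.68 ± 0.14, and PDHX, a structural part of the complex, was higher by 0.25 ± 0.07, while PDHA1, its catalytic subunit, differed by 0.13 (limma adjusted p = 0.135). Uptake and activation had 3 of 19 higher and 8 lower, with the thioesterase ACOT9 higher by 0.92 ± 0.07 and its relative ACOT11 lower by -1.44 ± 0.15, and the acetyl-CoA synthetases ACSS1 and ACSS2 lower by -0.66 ± 0.10 and -0.59 ± 0.08.

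Synthesis and desaturation had 2 of 13 higher and 3 lower. ME1, which makes NADPH for synthesis, was higher by 0.64 ± 0.07 and ELOVL5, an elongase, by 0.34 ± 0.09. MLYCD, which removes the malonyl-CoA that blocks CPT1A, was lower by -0.88 ± 0.13, and ACACB, which makes malonyl-CoA at the mitochondrion, by -0.42 ± 0.11. Of 3 measured ketone body genes 0 were higher and 1 was lower, BDH1 by -0.53 ± 0.09.

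**Figure D5:**
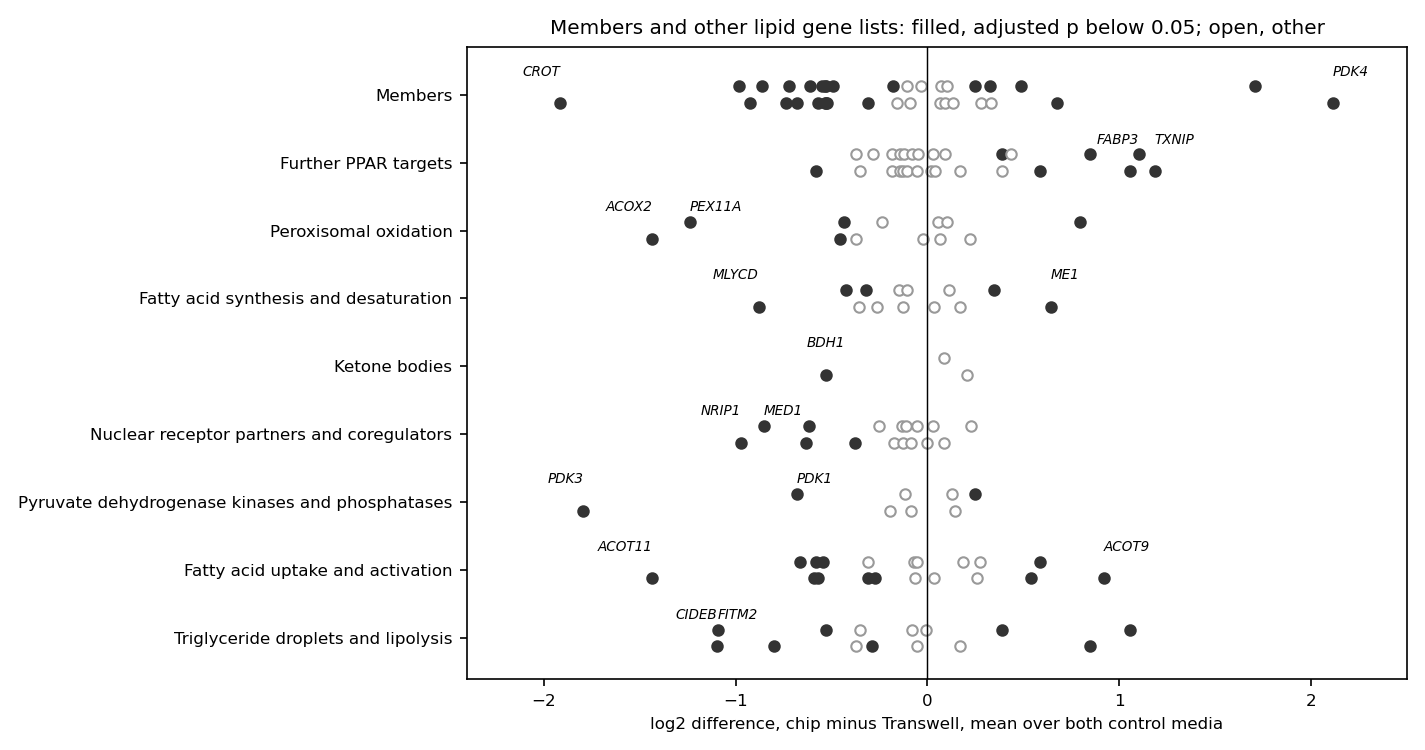
Log2 difference, chip minus Transwell over both control media, of the 35 genes (top line) and of 8 further lipid gene lists; each point is 1 gene, filled points have a limma adjusted p below 0.05, vertical offsets only separate points, and up to 2 genes per list are named. PDK4 has the largest positive and CROT the largest negative difference of the top line, and the nuclear receptor partners hold called genes on the lower side alone.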

How the data were processed

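Total RNA of Caco-2 cells was measured on Affymetrix whole-transcript arrays (100 ng labelled). The values the authors deposited are on the log2 scale and were made with RMA (per the submitters' processing notes), whose version is not given in the sources used here. This step gives all arrays 1 distribution, so a shift common to most genes would not be seen. It covered 31 arrays and 53617 probe sets without gaps, with values from 0.3615 to 13.5 and array medians of 3.24 to 3.33 and correlations between arrays of 0.942 to 0.987. Probe sets with 1 gene in the platform annotation (23871; 1842 named several genes and 27904 none) were kept, 22569 symbols were checked through the gene identifier in the RefSeq table, and the brightest probe set per gene left 22395 genes. Of the genes described, ACADM and PPARGC1A each had a second, dim probe set. Signal over background was not used; the number of arrays limits the precision.

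limma 3.58.1 in R 4.3.3 fitted 1 mean for each of 8 groups and 1 spread per gene over all groups (23 residual and 4.77 prior degrees of freedom). In each of 12 contrasts p-values were Benjamini-Hochberg adjusted over all genes. The fit was tested on simulated data first. The genes and lists were chosen with earlier results of these data known. Values in every array were given for genes called between control arrays with a log2 difference of at least 0.8, for the PPARs and PPARGC1A and for genes called elsewhere; of each other list up to 4 genes with the smallest p were named. Other genes named for an unadjusted p, for a lost call or as markers were chosen after their values were seen. Alternatives were an intensity trend or robust prior, array weights, only the groups compared, only brighter genes, median centring, quantile normalisation, the mean of all probe sets, a replicate block and leaving out arrays.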

Additional observations from a re-analysis of the deposited data

Results flagged for a closer look

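In 19 of 245 gene and group combinations with 4 arrays, 1 array lay farther from the others than Dixon's 95% critical value for 4 samples, and chance gives about 1 in 20. Chip ZnO replicate 1 was the far array for 3 genes: ACADM (7.96, others 8.61 to 8.69), ACAD9 (6.44, others 7.1 to 7.15) and EHHADH (5.26, others 6.57 to 6.69). This array also lay farthest out on the first principal component (49.92). Chip TiO2 replicate 4 was low for CPT2 (6.08, others 7.41 to 7.66) and CRAT (6.48, others 6.95 to 7.0), and chip TiO2-control replicate 4 was high for ACADL (3.06, others 2.5 to 2.53). These are replicates that lay apart over all genes as well.

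Elsewhere in the chip, TiO2 replicate 1 was low for DECR1 (4.9) and HSD17B4 (8.58), and TiO2 replicate 3 was low for ACAA1 (5.74) and high for PPARGC1A (4.69). On Transwell, ZnO-control replicate 1 was low for CPT2 (6.95), EHHADH (6.92) and PPARGC1A (3.81) and high for ETFA (9.37), and ZnO-control replicate 2 was low for DECR1 (5.42). ZnO replicate 3 was low for ECHS1 (9.46). TiO2-control replicate 2 was low for HADHB (8.94) and high for ETFDH (6.95), and TiO2-control replicate 4 was low for ACAA1 (6.64). Several of these gaps are small in size, such as 8.94 against 8.97 for HADHB.

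The culture system difference of PPARD was 0.69 larger in ZnO-control than in TiO2-control medium by the interaction test of limma (adjusted p = 0.0209).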

How the results depend on the processing

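The count of called genes between chip and Transwell control arrays was 24 and stayed at 22 to 26 under every alternative run, with 0 reversals. Leaving out 1 array at a time gave 22 to 25 for both media, 19 to 22 for ZnO-control and 16 to 18 for TiO2-control medium, 1 to 1 for the difference between media, 1 to 2 between control media on Transwell, 0 to 1 between control media in the chip, and 0 to 0 for each exposure and response difference. The PPARD media difference gave 0 calls with only the groups compared in the fit. Between control media on Transwell the count was 3 as reported, 5 with an intensity trend, after centring (4 higher, 1 lower) or after quantile normalisation, 10 with array weights, 9 with only the groups compared and 8 with only brighter genes. Over all genes these were 6.64% as reported and 7.6%, 7.33%, 7.09%, 12.7%, 8.72% and 18.1%. In the chip it was 1 without both replicates 4 of the TiO2 set, an alternative chosen after seeing the data. Over all genes, array weights gave 2834 calls on Transwell against 1486, and leaving out both replicates 4 gave 388 in the chip against 13 and 73 for chip TiO2 against 0; the cause was not tested. ZnO in the chip gave 61 calls over all genes, 103 with an intensity trend, 118 among brighter genes, 25 with array weights, 33 with the replicate block and 0 with only the groups compared. The media difference gave 613, and 1047 among brighter genes. Of 2410 alternative values of single genes 2276 stayed on their side of the threshold, 77 lost and 57 gained a call. Changes of sign in uncalled genes near 0 are not shown by these counts. Scaling moved the median of all genes by at most 0.0746. Deviations of same-numbered arrays correlated at -0.232 to 0.131 within a set and -0.126 to 0.175 between sets. The largest within a set, 0.131, was between replicates 4 of chip TiO2 and chip TiO2 control. With 3 or 4 arrays per group these values cannot tell whether same-numbered arrays shared a culture or batch. With the replicate block the counts were 24, 22, 19 and 1 for both media, ZnO-control, TiO2-control and their difference. They were 4 and 0 between control media on Transwell and in the chip, and 0 for each exposure. The number of arrays, and dim signal for PDK4 on Transwell and for ACADL, limit these values.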

Other observations

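In chip cells exposed to ZnO, PLIN3, a droplet coat protein outside the 35 genes, was the one gene of the 8 further lipid lists called in any exposure, higher by 0.62 ± 0.14 (limma adjusted p = 0.0393). The PLIN3 call was lost under 8 of 17 alternatives, among them only the groups compared in the fit, the replicate block and 6 of the fits without 1 array (limma adjusted p up to 0.701 over all alternatives). Between control media on Transwell, ZnO-control arrays were lower than TiO2-control arrays for MLXIPL, a glucose-sensing activator of lipid synthesis (-1.07 ± 0.23), ACSM3, a medium-chain synthetase (-0.82 ± 0.15), PDK1 (-0.71 ± 0.20), UCP2, a mitochondrial carrier (-0.65 ± 0.13), PNPLA2 (-0.49 ± 0.12), ACSS2 (-0.47 ± 0.12) and TXNIP (-0.41 ± 0.12). ABCD3, which brings fatty acids into peroxisomes, was higher there by 0.47 ± 0.12. The culture system difference also depended on the medium for UCP2 (0.90 ± 0.19), PNPLA2 (0.59 ± 0.16) and FABP1, the liver-type fatty acid carrier (-0.81 ± 0.22), each with a limma adjusted p below the threshold. Among the genes named for the control media on Transwell, TXNIP, PDK1, ACSS2, ABCD3 and ACSM3 lost their call under 7, 9, 2, 2 and 1 of 17 alternatives. For the difference between media FABP1 and PNPLA2 lost theirs under 14 and 15 of 26, while UCP2 kept it under each. FABP2, from the epithelial and enterocyte markers, was called in both comparisons too. It lost its call under 0 of 16 alternatives for the control media on Transwell and under 0 of 25 for the difference between media.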
